A study of Arabidopsis thaliana with 4 samples.

Results

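The chloroplast NADH dehydrogenase-like (NDH) complex was followed in Arabidopsis thaliana rosette leaves, taken from wild-type Col-0 plants at 3 weeks of age. Detached leaves floated for 1 h on 0.1 mM flavin adenine dinucleotide (FAD), the flavin cofactor of many oxidoreductases, or on water as the mock treatment. There were 2 replicates of FAD-treated and 2 of mock-treated leaves, and each was measured on 1 Affymetrix array, 4 arrays in all. Leaves taken before detachment had no array here, so a difference is one between FAD and mock leaves, both detached and both floated. Described here are 10 genes, chosen by their symbol in the platform annotation, of 13356 genes that had a probe set of their own. Of these, 4 are encoded in the plastid (ndhE, ndhG, ndhI and ndhJ) and 6 in the nucleus (NdhL, NdhS, CRR21, CRR28, CRR41 and CRR42). The mean signal was to choose between probe sets of a gene, but each of the 10 had a single one, and all 10 passed the filter on dim signals.

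The NDH complex sits in the thylakoid membrane next to photosystem I and passes electrons from ferredoxin to plastoquinone, a route of cyclic electron flow and of chlororespiration. It resembles respiratory complex I but lacks that complex's flavin-binding, NADH-oxidising module. Its subunits are encoded partly in the plastid and partly in the nucleus, so 2 genomes supply one complex. Its plastid transcripts need nuclear RNA-binding proteins, among them pentatricopeptide repeat (PPR) proteins that direct single C-to-U edits. Mutants in nuclear genes of the complex were found by an altered chlorophyll fluorescence after light is switched off, hence the name chlororespiratory reduction (CRR).

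None of the 10 genes passed the test for a difference between FAD and mock leaves; the values of plastid and nuclear genes are given apart. The 4 plastid genes had a median log2 fold change of -0.022 between FAD and mock leaves, with values from -0.13 to 0.08. The 6 nuclear genes had a median of -0.26, with values from -0.49 to 0.11. The median was 0.05 over all 13648 tested probe sets and 0.049 over the 7248 tested probe sets of a single nuclear gene. In 4 of the 6 nuclear genes (NdhS, CRR21, CRR41 and CRR42) the higher FAD array lay below the lower mock array, and so it did in 1 of the 4 plastid genes (ndhG), where 15.0% of all tested probe sets did so. None of the 10 had both FAD arrays above both mock arrays, as 22.0% of tested probe sets had. After Benjamini-Hochberg adjustment limma called 0 of the 10 lower and 0 higher, against 0.0366% of all tested probe sets called lower and 0% called higher. At an unadjusted p under 0.05 it had 1 of the 10 lower, NdhS, against 3.84% of probe sets, and 0 higher, against 3.03%. The gap between the plastid and nuclear medians was 0.23 on the log2 scale. Members of a group are not replicates, and the gap was not tested. The labelling kit works from the 3' end, and plastid mRNAs mostly lack poly(A) tails outside decay. What part this had in the gap was not tested.

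The 4 arrays shared a 2% trimmed mean of 500.1, and the median signal lay between 118.4 and 133.7, so the values cannot show a change in total mRNA. Signals of different probe sets cannot be compared as levels. Of 12 leaf mesophyll markers 4 had a named probe set (LHCB4.1, RCA, PRK and SBPASE), with a summed signal of 110551.8 and 121200.7 on the FAD arrays and 101732.6 and 110124.6 on the mock arrays. The ratio of 3' to 5' signal of a transcript reads RNA integrity, and 2 of 6 such ratios separated the treatments, both of actin. The GAPDH and ubiquitin ratios overlapped between treatments. The first-set actin ratio was 23.6 and 27.5 in FAD leaves and 31 and 33 in mock leaves, and the second-set actin ratio 4.7 and 5.34 in FAD leaves and 5.42 and 5.56 in mock leaves. The actin ratios move with the lower nuclear genes below, and their part in that difference was not tested.

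**Figure D1:**
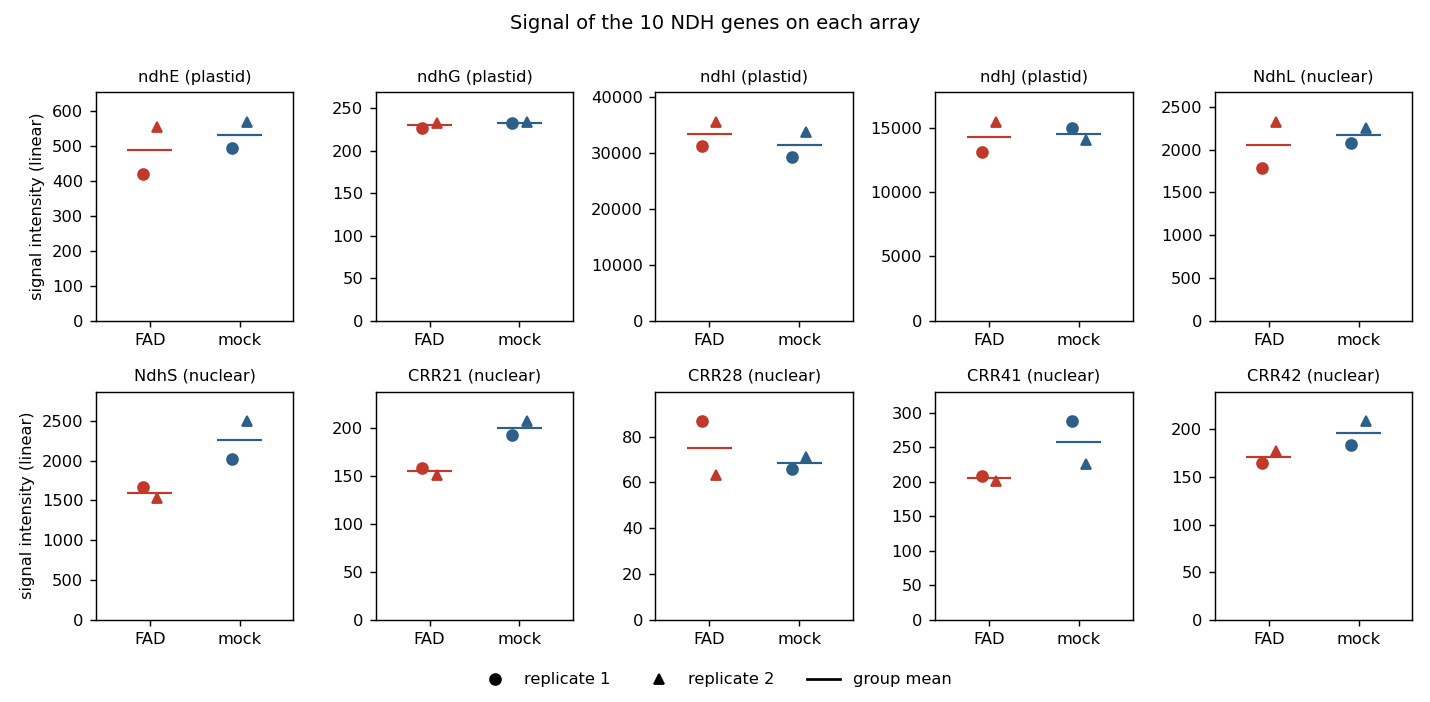
Signal intensity (linear scale from 0) of each of the 10 genes on the 2 FAD and 2 mock arrays; circles are replicate 1, triangles replicate 2 and bars the group mean. The FAD points lie below the mock points for NdhS, CRR21, CRR41 and CRR42, whereas the points of ndhE, ndhI, ndhJ, NdhL and CRR28 overlap between treatments and those of ndhG nearly coincide.

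NdhS, a nuclear subunit that forms the docking site for ferredoxin on the stromal side of the complex, had the largest difference of the 10. Its signal was 1664.6 and 1527.2 on the FAD arrays and 2015.9 and 2492.4 on the mock arrays. Both FAD values were thus below the lower mock value, and the spread was wider in mock leaves. The means were 1595.9 ± 97.2 in FAD and 2254.1 ± 337 in mock leaves (SD, n = 2 each), a ratio of FAD over mock of 0.711. On the log2 scale FAD minus mock was -0.49 ± 0.18 (SE), with a 95% confidence interval from -0.91 to -0.08 (limma adjusted p = 0.623, unadjusted p = 0.0261). Ordered by unadjusted p, NdhS was probe set 569 of 13648, and 5.26% of tested probe sets had a log2 fold change as low or lower. In leaf RNA from many cells, fewer cells of a type and less transcript per cell cannot be told apart.

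NdhL, the other nuclear subunit among the 10, anchors the stromal arm to the membrane. Its signal was 1787.6 and 2321.2 on the FAD arrays and 2077.6 and 2256.9 on the mock arrays. The FAD arrays held both the lowest and the highest value, so the treatments overlapped. The log2 fold change was -0.09, with an interval from -0.52 to 0.34 (limma adjusted p = 0.953).

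CRR21 is a PPR protein needed for the editing of a site in the ndhD transcript. Its signal was 158.7 and 151.4 on the FAD arrays and 192.6 and 207.2 on the mock arrays, so the replicates of each treatment lay closer together than the treatments did. The means were 155.1 ± 5.18 in FAD and 199.9 ± 10.3 in mock leaves (SD, n = 2 each), a ratio of 0.776. FAD minus mock on the log2 scale was -0.37 ± 0.23 (SE), with an interval from -0.90 to 0.17 (limma adjusted p = 0.806).

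CRR28, a PPR protein for the editing of sites in ndhB and ndhD transcripts, had the dimmest probe set of the 10 and the only positive log2 fold change among the nuclear genes. Its signal was 86.63 and 63.25 on the FAD arrays and 65.71 and 71.23 on the mock arrays. Again both extremes lay within FAD leaves. It had a log2 fold change of 0.11, with an interval from -0.70 to 0.93 (limma adjusted p = 0.967). Under quantile normalization it turned to -0.039. The 2 editing factors thus had values of opposite sign, and the difference between them was not tested.

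CRR41 and CRR42 are stromal proteins that act in the assembly of subcomplex A, the part of the complex that faces the stroma. CRR41 had a signal of 209.2 and 200.9 on the FAD arrays and 287.8 and 226.6 on the mock arrays. Its FAD arrays nearly coincided and lay below both mock arrays, of which replicate 1 was much the higher. The log2 fold change was -0.32, with an interval from -0.85 to 0.21 (limma adjusted p = 0.829); it was -0.15 without mock replicate 1 and -0.49 without mock replicate 2. CRR42 had 164.9 and 177.2 on the FAD arrays and 183.1 and 208.4 on the mock arrays. There the higher FAD array and the lower mock array were close together. Its log2 fold change was -0.19, with an interval from -0.73 to 0.35 (limma adjusted p = 0.9), and it was -0.10 without mock replicate 2.

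**Figure D2:**
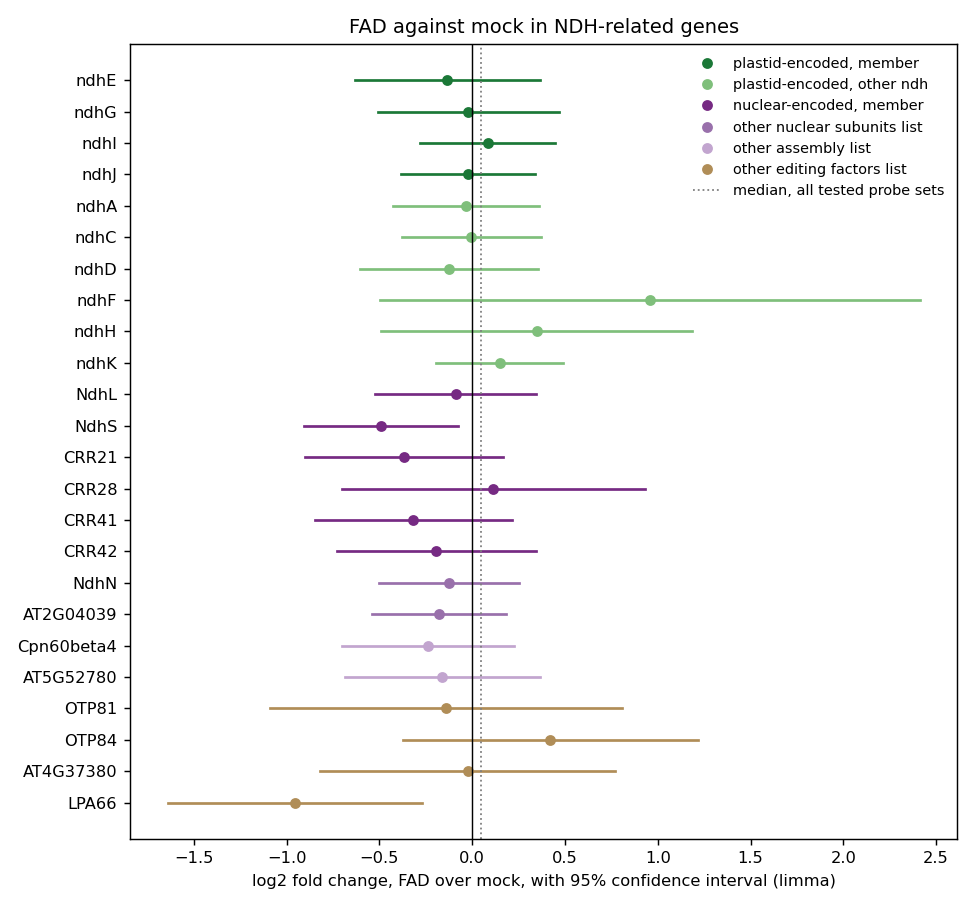
Log2 fold change of FAD over mock leaves (points) with its 95% confidence interval from limma (lines). Drawn are the 10 genes and the other tested plastid ndh genes, nuclear NDH subunits, NDH assembly factors and plastid transcript editing factors. The last list is not confined to NDH transcripts. The dotted line is the median of all tested probe sets, 0.05. Only the intervals of NdhS and LPA66 among those drawn do not reach 0, and neither gene passed after adjustment.

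The plastid genes encode core subunits. The ndhE and ndhG products lie in the membrane arm, and the ndhI product carries iron-sulfur clusters in the stromal arm, where the ndhJ product also sits. The ndhE signal was 418.7 and 555.4 on the FAD arrays and 492.6 and 567.7 on the mock arrays, which overlapped. Its log2 fold change of -0.13 had an interval from -0.63 to 0.37 (limma adjusted p = 0.938), and without FAD replicate 1 it turned to 0.071.

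The ndhG signal hardly varied, at 227.2 and 232.2 on the FAD arrays and 232.3 and 233.5 on the mock arrays. Both FAD values were below both mock values, but the ratio of FAD over mock was 0.986. The log2 fold change was -0.020, with an interval from -0.51 to 0.47, since limma draws the error of each probe set towards that of probe sets of like signal (limma adjusted p = 0.991).

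For ndhI the signal was 31188.5 and 35451.4 on the FAD arrays and 29220.4 and 33708.4 on the mock arrays. In both treatments the replicate 2 array was the higher one, and the treatments overlapped. The log2 fold change was 0.08, with an interval from -0.28 to 0.45 (limma adjusted p = 0.948). This sign turned with the scaling, as the value was -0.029 under quantile normalization and -0.006 under median centring. It also turned with single arrays left out, to -0.02 without mock replicate 1 and -0.009 without FAD replicate 2. For ndhJ the signal was 13155.6 and 15444.5 on the FAD arrays and 14958.7 and 14049.0 on the mock arrays. The FAD arrays held the lowest and the highest value. Its log2 fold change was -0.024, with an interval from -0.39 to 0.34 (limma adjusted p = 0.987). All 4 intervals of the plastid genes include 0, and they reach from -0.63 for ndhE to 0.47 for ndhG.

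Replicate arrays of one treatment differed in the plastid genes. On FAD replicate 2 all 4 were above their own mean over the 4 arrays, by a median of 0.12 on the log2 scale, and on FAD replicate 1 all 4 were below it, with a median of -0.09. In FAD leaves the replicate 2 array was higher for all 4, by a median of 0.21, and in mock leaves for 3 of the 4, by a median of 0.11; ndhJ was the exception. Other plastid-encoded genes went the same way. Of 57 tested plastid genes outside the ndh family, replicate 2 was higher for 49 in FAD leaves and for 50 in mock leaves, by medians of 0.26 and 0.17. Over all tested probe sets the corresponding medians were -0.027 in FAD and -0.048 in mock leaves. What a replicate number stands for (a day, a tray, a set of plants) is not in the labels.

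The nuclear genes were chosen with earlier results known. Among them 4 of 6 had no FAD array as high as a mock array, against 15.0% of all tested probe sets. The opposite order was seen in 22.0% of tested probe sets and in none of these genes. NdhL and CRR28 overlapped between treatments. On the FAD arrays 1 of the 6 was above its own mean in each case, with median deviations of -0.15 on replicate 1 and -0.18 on replicate 2. On the mock arrays 4 and 5 of the 6 were above it, with medians of 0.05 and 0.15. The median deviation of the plastid genes minus that of the nuclear genes was 0.06 and 0.30 on the FAD arrays and -0.06 and -0.11 on the mock arrays. This gap did not overlap between treatments, but it is a score over genes chosen with earlier results known and was given no test. The median deviation over all tested probe sets was 0.042 and 0.015 on the FAD arrays and 0.011 and -0.037 on the mock arrays. It too lay above the median of the nuclear genes on both FAD arrays and below that median on both mock arrays. Such a gap to the nuclear genes is thus not particular to the plastid ndh genes. How often other sets of genes give such a gap was not tested.

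**Figure D3:**
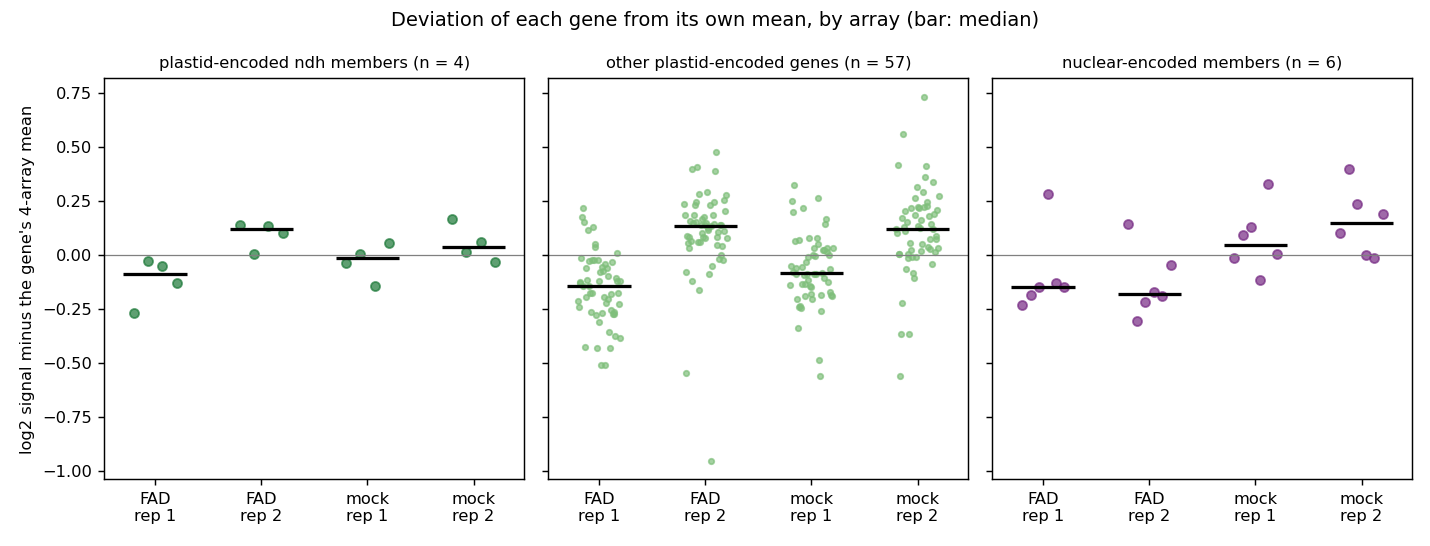
Log2 signal of each gene minus its own mean over the 4 arrays, for the 4 plastid ndh genes (left), the 57 tested plastid-encoded genes outside the ndh family (middle) and the 6 nuclear genes (right); black bars are medians. The plastid medians are higher on replicate 2 than on replicate 1 in both treatments, and the nuclear medians are below 0 on both FAD arrays and above 0 on both mock arrays.

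In the plastid genome ndhE, ndhG and ndhI are direct neighbours in a run of 7 protein-coding genes from ndhD to ndhH, and ndhJ opens a run of 3 with ndhK and ndhC. The 7 genes of the long run had log2 fold changes from -0.13 at ndhE to 0.35 at ndhH. Next to ndhE, the photosystem I gene psaC had 0.15, with an interval from -0.39 to 0.70, and ndhD beyond it had -0.12. On the other side of ndhI, ndhA had -0.032. In the short run ndhK had 0.15 and ndhC had -0.005. Every interval in both runs spans 0.

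**Figure D4:**
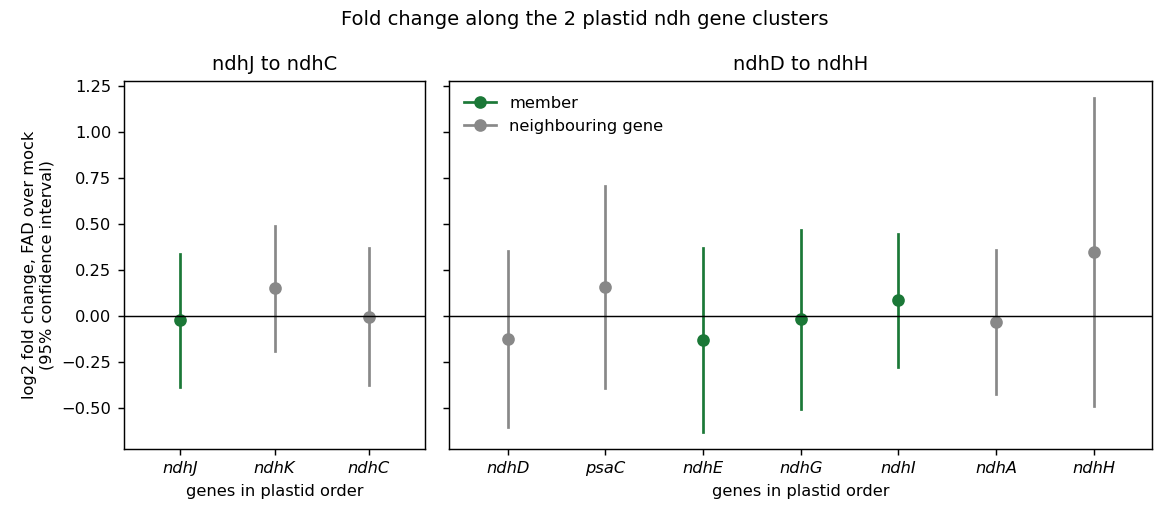
Log2 fold change of FAD over mock leaves with its 95% confidence interval for the genes of the ndhJ to ndhC and the ndhD to ndhH runs, in the order in which they lie in the plastid genome (no distances shown). Members are green and their neighbours grey; all 10 intervals span 0.

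Of the 8 entries for the remaining plastid ndh genes, 6 had a probe set of their own and were tested, and 0 passed in limma. At an unadjusted p under 0.05 there were also 0. Their median log2 fold change was 0.07, with 3 positive and 3 negative values. The widest interval was that of ndhF, whose signal was 61.06 and 132.0 on the FAD arrays and 25.98 and 82.26 on the mock arrays, with a log2 fold change of 0.96 and an interval from -0.50 to 2.41. In both treatments its replicate 2 array was the higher one. Only ndhK of the 6 had both FAD arrays above both mock arrays, as 22.0% of all tested probe sets had. Its signal was 6566.9 and 6868.0 against 5983.0 and 6144.0, with a limma adjusted p of 0.875. The ndhB probe set is assigned to both copies of that gene, was below the filter, and had 37.89 and 49.91 on the FAD arrays and 28.84 and 45.1 on the mock arrays.

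Other nuclear genes of the complex were few in the annotation, and those tested had negative values without passing. Of 18 further nuclear subunits in the list 2 were tested. NdhN, a subunit of subcomplex A, had 1442.5 and 1540.5 on the FAD arrays and 1572.4 and 1675.7 on the mock arrays, a log2 fold change of -0.12 (limma adjusted p = 0.916). The locus AT2G04039, which has no gene name in the tables used here, had -0.18 (limma adjusted p = 0.855). In both genes the FAD arrays lay below the mock arrays, as in 15.0% of all tested probe sets.

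Of 7 further assembly factors 2 were tested. Cpn60beta4, a chaperonin subunit needed to fold the NdhH protein, had 336.9 and 314.4 on the FAD arrays and 413.4 and 355.6 on the mock arrays, a log2 fold change of -0.24 (limma adjusted p = 0.853). Both FAD values were below both mock values, as in 15.0% of all tested probe sets. The locus AT5G52780 had -0.16, and its arrays overlapped.

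Of 27 further factors for the editing and processing of plastid transcripts, 11 had a probe set of their own and 4 were tested, of which 3 had negative values. LPA66, a PPR protein for the editing of psbF, a photosystem II transcript, had 145.9 and 100.5 on the FAD arrays and 274.9 and 200.9 on the mock arrays. FAD minus mock was -0.96 ± 0.29 on the log2 scale (SE; limma adjusted p = 0.539, unadjusted p = 0.0127). OTP84, a PPR protein for sites in ndhB, ndhF and psbZ, had 0.42 with an interval from -0.37 to 1.22. OTP81 had -0.14 and AT4G37380 had -0.025, and both overlapped between treatments. CRR22, another editing factor of NDH transcripts, was below the filter, with 71.07 and 56.46 on the FAD arrays and 10.69 and 72.85 on the mock arrays.

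PGRL1B belongs to the PGR5-dependent route of cyclic electron flow, which runs beside the NDH route. It was the only tested gene of the 4 in its list and had a log2 fold change of 0.28, with an interval from -0.23 to 0.79 (limma adjusted p = 0.836). Over the 9 tested nuclear genes of these 4 lists, 7 had a negative log2 fold change and 4 had no FAD array as high as a mock array; the median was -0.14. Among all tested probe sets 42.5% had a negative value and 15.0% no FAD array as high as a mock array. Limma called 0 of the 9 in either direction, with 1 lower and 0 higher at an unadjusted p under 0.05, against 3.84% and 3.03% of all tested probe sets.

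The 57 tested plastid-encoded genes outside the ndh family had a median log2 fold change of -0.008, close to the -0.022 of the 4 plastid members. In 8 of the 57, 14.0%, the FAD arrays were both below the mock arrays, against 15.0% of all tested probe sets, and in 5, 8.77%, both above, against 22.0%. Limma called 0 of them in either direction, with 2 lower and 0 higher at an unadjusted p under 0.05, where all tested probe sets had 3.84% and 3.03%. The 4 with the largest absolute moderated t were the ribosomal protein genes rpl33, rps16 and rpl16, with log2 fold changes of -0.998, -0.67 and -0.37, and the photosystem II gene psbM, with 0.30. Their limma adjusted p lay between 0.539 and 0.765. The plastid ndh members thus lay within the range of the other plastid genes, from -0.998 to 0.31.

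Markers of other leaf and root cell types were sparse. The guard cell marker FMA was the only named one of 4, with 160.3 and 255.9 on the FAD arrays and 137.1 and 133.3 on the mock arrays. For phloem, 2 of 5 markers were named, with a summed signal of 7403.6 and 4227.6 in FAD and 6900.7 and 5202.2 in mock leaves, most of it from the sugar transporter gene SWEET11. The other, the glutamate receptor-like gene GLR3.3, had 551.3 and 440.3 on the FAD arrays and 872.2 and 764.6 on the mock arrays, with FAD minus mock at -0.73 on the log2 scale (limma adjusted p = 0.504, unadjusted p = 0.00712). That value is lower than the value of each of the 6 nuclear genes. Of the root markers 2 of 3 were named, and their sum was 1072.9 and 1824.0 in FAD and 1720.8 and 406.3 in mock leaves, nearly all of it from PYK10. The dividing cell marker HTR12, 1 of 3, was below the filter. No named marker was at 0 on any array. The lowest signal of any probe set outside the controls was 0.0832, so this does not show that a marker was detected. The phloem and root sums overlapped between treatments, whereas FMA was higher on both FAD arrays and GLR3.3 was lower on both. Of all tested probe sets, 22.0% were higher on both FAD arrays and 15.0% were lower on both. The mesophyll sum was narrowly higher on both FAD arrays, but its markers did not all go that way. LHCB4.1 and RCA, with log2 fold changes of 0.19 and 0.16, were higher on both. PRK and SBPASE, with 0.033 and -0.047, overlapped. None of the tested markers passed in limma, and the part of these cells in the nuclear differences was not tested.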

How the data were processed

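The deposited values are linear signal intensities, 1 per probe set and one-colour Affymetrix array. The submitters' processing notes name GCOS, without a version or a summary algorithm. Per the labels' protocols, total RNA was labelled with biotin by a kit that works from the 3' end. Such kits prime on poly(A) tails, which plastid mRNAs mostly lack outside decay. The 2% trimmed means differed by 0.000764%, so no further scaling was done.

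Signals were log2 transformed without an added constant. After 64 control probe sets were set aside, probe sets with a mean log2 signal at or above the 40th percentile (geometric mean 63.59) were tested, 13648 of 22746. FAD and mock arrays were compared with limma 3.58.1 in R 4.3.3 (eBayes with a mean-variance trend, treatment as the only term, 2 residual and 5.43 prior degrees of freedom). Benjamini-Hochberg adjustment ran over all tested probe sets, at 0.05. The fit was checked on data simulated from its own variance model, with changes larger than those of the 10 genes. That check does not show how well changes of their size are found. With 2 arrays a group, an exact two-sided permutation test has a smallest p of 0.333 and was not used. Whether replicates came from separate plants is not in the labels, and a p-value here covers only the spread between these arrays. Names came from the platform annotation, updated by gene ID through the RefSeq TAIR10.1 table, which also gave the plastid gene order. All 10 genes are named with every value; of each list all tested genes are named where 6 or fewer were tested, otherwise the 4 with the largest absolute moderated t. The members, lists and tests were chosen with earlier results of these data known. Alternatives were quantile normalization, median centring, adding 32 before the log, dropping the filter or raising it to the 60th percentile, leaving out the trend, the replicate number as a block, and leaving out each array.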

Additional observations from a re-analysis of the deposited data

How the results depend on the processing

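None of the 10 genes passed in any alternative tried. NdhS, CRR21, CRR41, CRR42 and ndhG stayed negative in all of theirs, NdhS between -0.64 and -0.34, where its lowest limma adjusted p was 0.197. The other genes changed sign. Under quantile normalization ndhI was -0.029 and CRR28 -0.039, and under median centring ndhI was -0.006. With 1 array left out ndhI ran from -0.020 to 0.19, ndhJ from -0.14 to 0.091, ndhE from -0.34 to 0.071, NdhL from -0.28 to 0.10 and CRR28 from -0.11 to 0.34. The nuclear median, -0.26, was -0.35 under median centring, a setting that lowers the median of all tested probe sets by 0.09, and -0.32 over the 3 nuclear genes that a filter at the 60th percentile leaves. With 1 array left out it ran from -0.28 to -0.21, and the plastid median from -0.09 to 0.08.

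Over all probe sets 5 were called lower. Median centring gave 18, dropping the filter 2, raising it to the 60th percentile 2, and leaving out the trend 0. Leaving out 1 array gave 1 to 4 lower and 0 to 1 higher. As a block, the replicate number gave 36 higher and 153 lower, none among the 10 genes. Deviations of same-numbered arrays correlated at 0.219 across probe sets, but 2 pairs are too few to show that the numbers pair the samples.

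Counts of genes with no overlap were repeated under settings added after seeing the data. For nuclear genes the count stayed at 4 or 5 of 6. For plastid genes it was 0 of 4 under quantile normalization and 1 to 3 with 1 array left out, namely 2 without mock replicate 1 and 3 without FAD replicate 2. In those fits with 3 arrays, 26.6% to 31.5% of all tested probe sets lie lower on FAD without overlap. That share was 17.5% under quantile normalization and 22.5% under median centring, against 15.0% in the main fit. The mean over several probe sets of a gene was not run, since each gene had 1. The number of arrays limits the precision.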
